A study of Mus musculus with 5 samples.

Results

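The apolipoprotein E and C cluster is a run of 4 neighbouring genes, Apoe, Apoc1, Apoc2 and Apoc4, which were taken here by name out of 30905 mouse genes. The genes were chosen by their measured levels across libraries and cell types, Apoe and Apoc1 above all, so those levels are given as a description and carry no p-value. Apoe encodes a lipid-carrying protein that binds receptors of the LDL receptor family, and it is best known from liver, macrophages and astrocytes. Apoc1 encodes a small exchangeable apolipoprotein known to slow the receptor uptake of lipoproteins, Apoc2 encodes the cofactor of lipoprotein lipase, and Apoc4 encodes a minor component of triglyceride-rich particles. Basal cells are the stem cells of the tracheal epithelium and give rise to its secretory and ciliated cells.

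Single-cell RNA sequencing (10x Chromium) was carried out on tracheas of adult wild type 129 X1/S1 mice. The recipients were given 2% polidocanol, a detergent that strips the airway lining, and 5 hours later 6000000 basal cells made from mouse embryonic stem cells (iBCs). A recipient trachea was taken on day 40 and another on day 56 after transplantation, and the live cells of each (Calcein Blue positive) were sorted into a GFP+ library, called donor-derived, and a GFP- library, called endogenous (n = 2 libraries per group, 1 recipient per day). For the control (n = 1), a trachea that received neither detergent nor cells was sorted for live cells alone, with no GFP gate. The groups are thus 1 recipient at each time, and day and recipient cannot be told apart.

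After filtering, 1693 and 1731 donor-derived cells, 1300 and 1219 endogenous cells and 611 control cells were kept, with medians of 9999 to 12783 UMIs per cell in the 5 libraries. Levels are given as CPM, the UMIs of a gene per 1000000 mouse UMIs of the cells summed, and an interval in brackets is an exact 95% Poisson interval for counting error only. Classes were named "-like" from marker genes, and clusters that failed the naming rule keep their number. Basal-like cells numbered 559 and 374 in the donor-derived libraries, 342 and 231 in the endogenous libraries, with 68 in the control. All 10 basal markers had counts in each of these sums, at a summed 9349 and 7450 CPM in donor-derived basal-like cells, against 10481 and 8697 CPM in endogenous ones and 11941 CPM in the uninjured control. Different clusters held the class in the groups: cluster 1 held 459 and 196 and cluster 9 held 87 and 175 of the donor-derived basal-like cells, and cluster 2 held 342 and 230 endogenous cells and all 68 control cells. Of the donor-derived cells, 13 on day 40 and 3 on day 56 lay in cluster 2 and went against the label in that respect, with an EGFP UMI in 2 of the 13 and in 0 of the 3. Their Apoe level was 3025 and 2535 CPM. The Apoe and Apoc1 levels of basal-like cells are given with and without them. Shares of cells with a UMI, UMIs per cell and the finding of both genes in a cell are given with them only.

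The cluster lies on chromosome 7 of GRCm38 and spans 27610 bases, from 19671579 to 19699188, with all 4 genes on the minus strand. In the order of transcription Apoe (19696109 to 19699188) comes first, then Apoc1 (19689481 to 19692660), Apoc4 (19678083 to 19681479) and Apoc2 (19671579 to 19677941). The 250 bases upstream of the Apoe start (chr7:19699189-19699438, minus strand, RefSeq on GRCm38.p6) are shown because Apoe is the member whose level differed most between donor-derived and endogenous basal-like cells.
Apoe upstream window: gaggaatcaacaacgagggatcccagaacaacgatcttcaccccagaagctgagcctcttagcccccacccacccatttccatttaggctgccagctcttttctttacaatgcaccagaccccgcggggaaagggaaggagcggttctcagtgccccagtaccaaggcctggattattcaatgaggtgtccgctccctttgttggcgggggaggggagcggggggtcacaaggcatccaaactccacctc
The window has 57.2% G and C, against a median of 52.4% over 32851 such windows of mouse genes. It was searched on both strands for the GC box GGGCGG, the TATA box TATAAA, the CCAAT box and the LXR element (AGGTCA, any 4 bases, AGGTCA), and none of these letters occurs in it, so no base is in capitals. The GC box was found in 32.7% of all windows, the TATA box in 12.4%, the CCAAT box in 33.8% and the LXR element in 0.0152%.

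Apoe and Apoc1 were the only members of the cluster with more than a few UMIs in any library. Over all barcodes, Apoe gave 2964 and 4133 UMIs in the donor-derived libraries, 16911 and 14867 UMIs in the endogenous libraries, with 3685 UMIs in the control. Apoc1 gave 3829 and 5432 UMIs in the donor-derived libraries, 1534 and 837 UMIs in the endogenous libraries, with 475 UMIs in the control. Apoe was thus lower, and Apoc1 higher, in both donor-derived libraries than in both endogenous ones. Most of the Apoe UMIs came from basal-like cells, which held 77.0% and 52.8% of the Apoe UMIs of the kept donor-derived cells, 84.6% and 71.8% of those of the endogenous cells and 71.6% of those of the control cells. Of the Apoc1 UMIs basal-like cells held 65.0% and 29.9% in donor-derived, 71.7% and 66.7% in endogenous and 39.6% in control cells. In the donor-derived library of day 56 another 42.5% of the Apoe UMIs and 68.1% of the Apoc1 UMIs lay in cluster 0, an unnamed cluster of donor-derived cells whose best-scoring marker list was the basal one.

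Apoc2 gave 0 UMIs in all 5 libraries, which allows up to 0.118 and 0.141 CPM in the donor-derived, 0.174 and 0.172 CPM in the endogenous and 0.406 CPM in the control cells at 3 counts. Apoc4 gave 3 and 1 UMIs in the donor-derived libraries, 0 and 2 in the endogenous libraries, with 0 in the control. The Apoc2 count is uncertain, since 79.5% of its exonic bases are shared on the same strand with Gm44805, a read-through gene model over Apoc4 and Apoc2 that also gave 0 UMIs. Of the exonic bases of Apoc4, 4.69% are shared with that model. The sources used here do not give how reads that fit more than 1 gene were counted, and the part of this in the counts of 0 was not tested.

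In basal-like cells Apoe stood far lower in the donor-derived than in the endogenous libraries of both recipients. Apoe was 326 CPM (313 to 340) and 518 CPM (497 to 541) in donor-derived basal-like cells on days 40 and 56, 3887 CPM (3823 to 3951) and 4188 CPM (4109 to 4269) in endogenous ones and 3841 CPM (3692 to 3996) in control ones. Both donor-derived libraries were below all 3 others, and the uninjured control lay just below the endogenous libraries. The means were 422 ± 136 CPM in donor-derived basal-like cells, against 4038 ± 213 CPM in endogenous ones (SD, n = 2 each), a log2 ratio of -3.26, or 9.56-fold lower, with -3.58 and -3.01 in the recipients of days 40 and 56. Without the 13 and 3 donor-derived cells of cluster 2, the donor-derived libraries had 246 and 492 CPM of Apoe, and the log2 ratio was -3.45.

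Apoc1, which starts 6.53 kb downstream of Apoe, had no difference of this size, and its direction depended on which cells were called basal-like. Its level in basal-like cells was 353 CPM (339 to 367) and 387 CPM (368 to 406) in the donor-derived libraries, 301 CPM (284 to 320) and 220 CPM (202 to 239) in the endogenous libraries and 276 CPM (237 to 320) in the control. With these classes both donor-derived libraries were above the other 3, by a margin that was small beside that of Apoe. The means were 370 ± 24.0 CPM in donor-derived basal-like cells, against 261 ± 57.6 CPM in endogenous ones (SD, n = 2 each), a log2 ratio of 0.50, with 0.23 and 0.81 in the recipients of days 40 and 56. Without the donor-derived cells of cluster 2, the donor-derived libraries had 357 and 391 CPM of Apoc1. When the members and the list genes were allowed among the genes used for clustering, the basal-like class held 188 and 303 donor-derived cells, and the direction of Apoc1 turned. It was then 142 and 163 CPM in donor-derived basal-like cells, against 295 and 224 CPM in endogenous ones and 260 CPM in the uninjured control, a log2 ratio of -0.77, while that of Apoe was -3.81. In that clustering a cluster of 469 and 177 donor-derived cells, led by Clca3a2 and Krt14, scored best on the basal list but stayed unnamed. These cells were thus not in the class, and their part in the turn was not tested. TMM scaling, which corrects for differences in RNA composition, moved the log2 ratio of all genes in basal-like cells by -0.14, and with it the ratios were -3.40 for Apoe and 0.37 for Apoc1.

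The balance of both transcripts therefore differed by library. Donor-derived basal-like cells gave 0.924 and 1.34 Apoe UMIs per Apoc1 UMI, endogenous ones 12.9 and 19.04 and control ones 13.9. In cluster 0 the donor-derived cells gave 0.288 and 0.474 Apoe UMIs per Apoc1 UMI. These ratios are set side by side between libraries and do not give the relative abundance of the genes, whose transcripts differ in length. Of the macrophage markers, the 3 C1q genes together were at 0.143 and 0.238 CPM in donor-derived basal-like cells, against 0.554 and 1.59 CPM in endogenous ones and 0 CPM in the uninjured control, and their level in macrophage-like cells was 3683 and 5342 CPM. The whole list of 10 macrophage markers had counts for 4 genes in each donor-derived sum, for 6 and 4 genes in the endogenous sums and for 2 genes in the control sum, with 2.58 and 1.67 CPM in donor-derived basal-like cells, against 3.32 and 2.78 CPM in endogenous ones and 3.11 CPM in the uninjured control when Lyz2, which airway secretory cells also express, was left out.

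**Figure D1:**
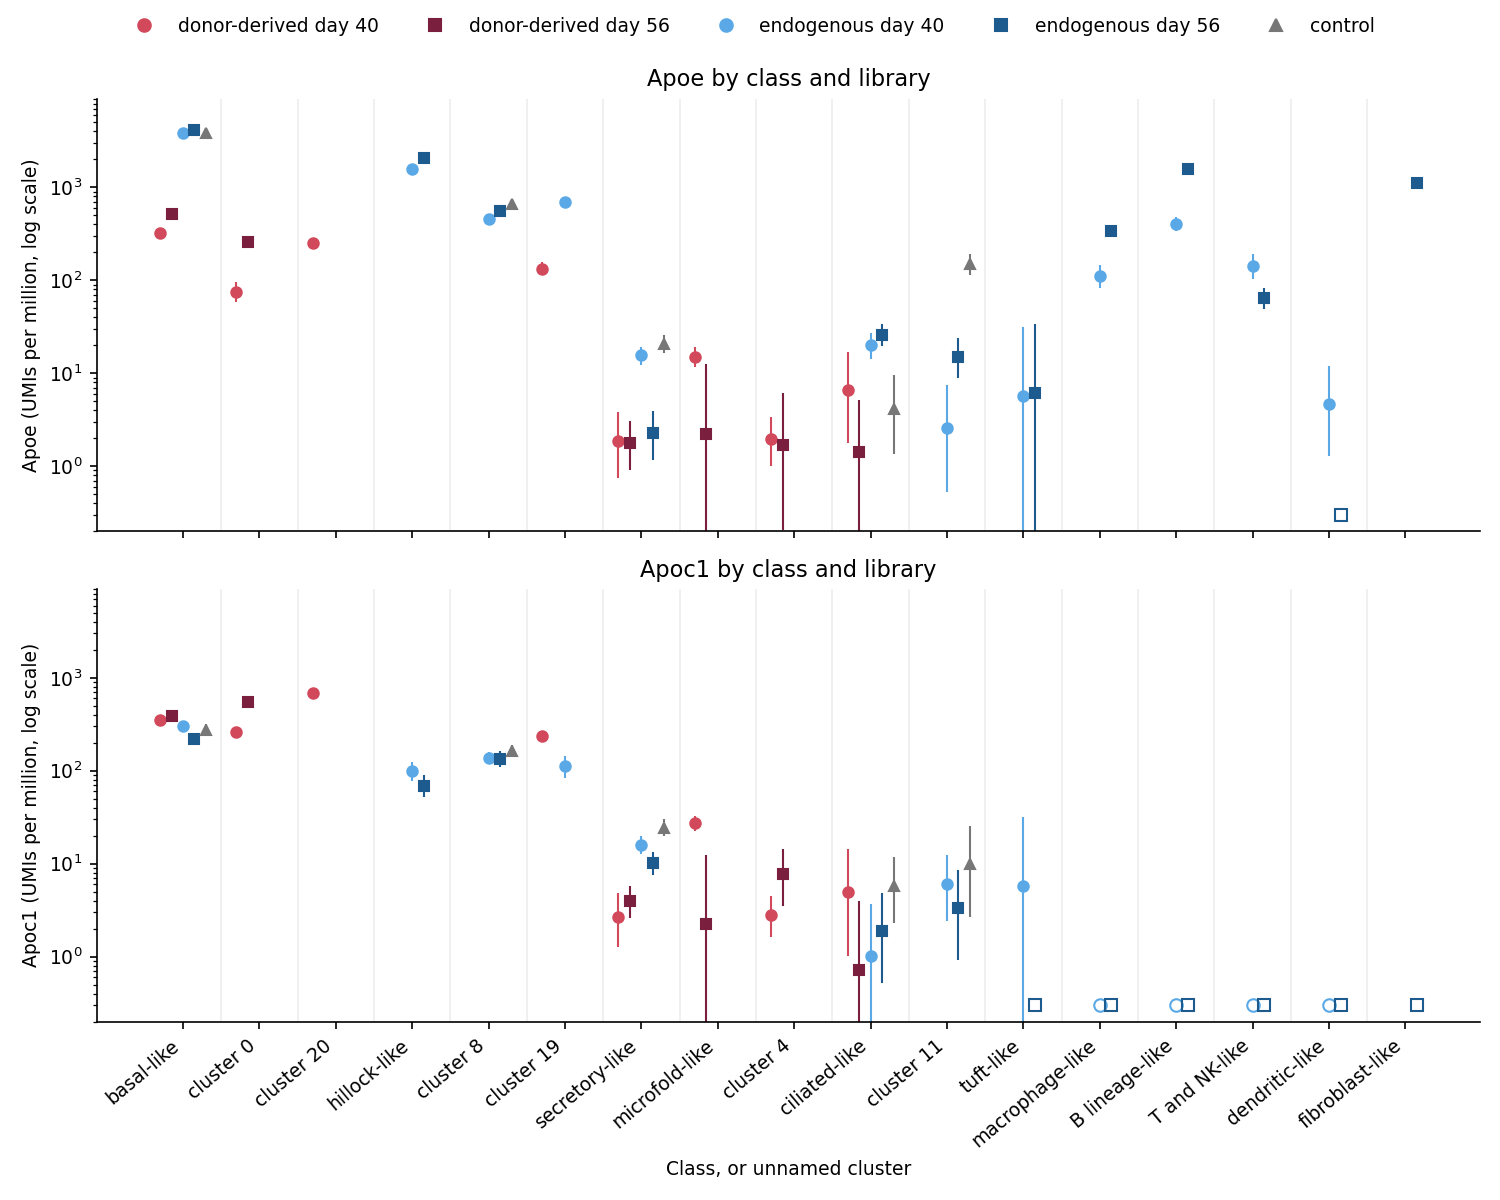
Levels of Apoe (top) and Apoc1 (bottom) in CPM on a log scale, by class or unnamed cluster (columns) and library (points; donor-derived left of endogenous, control last), with exact 95% Poisson intervals; open symbols at the foot mark sums with 0 counts, and only sums of at least 20 cells are drawn. In basal-like cells Apoe lies at 326 and 518 CPM in the donor-derived libraries and at 3887 and 4188 CPM in the endogenous ones, while the Apoc1 points of the same cells lie between 220 and 387 CPM.

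The difference in Apoe was one of how many basal-like cells carried its transcript as well as how much they carried. An Apoe UMI was found in 42.2% (exact 95% binomial interval 38.1 to 46.4) and 39.8% (34.8 to 45.0) of donor-derived basal-like cells, against 97.7% and 100% of their endogenous counterparts and 100% (94.7 to 100) in the control. The groups did not overlap, and depth was lowest in the control, with median UMIs per basal-like cell of 10810 and 10199 in the donor-derived libraries, 10056 and 10820 in the endogenous ones, with 8564.5 in the control. After thinning each cell to 5000 UMIs the shares were 30.4% and 30.6% in donor-derived, 96.6% and 99.1% in endogenous and 98.5% in control basal-like cells, with 4 to 16 shallower cells left out of a recipient library and 0 of the control. Secretory-like cells, which stand for the background of free RNA, gave an Apoe UMI in 2.83% and 3.02% of cells in the donor-derived libraries at median UMIs of 14778 and 16483. The share in donor-derived basal-like cells was above that background in both libraries.

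A median donor-derived basal-like cell had 0 Apoe UMIs on both days, against 38 and 43 in endogenous and 32.5 in control cells. A few donor-derived cells nonetheless reached endogenous levels, with up to 139 and 205 Apoe UMIs in a cell, against 136 and 141 in endogenous and 101 in control cells. The 56 and 38 donor-derived basal-like cells with the most Apoe, 10% of the class, held 80.2% and 83.6% of its Apoe UMIs. The 13 and 3 donor-derived cells of cluster 2 are included here and held 611 of the 2278 and 135 of the 2176 Apoe UMIs. How many of the highest cells were among them was not tested. The top 10% of endogenous basal-like cells held 24.1% and 22.5%, and that of the control 21.1%. Apoc1 was spread more evenly in donor-derived cells and less evenly in the others, with the top 10% of cells holding 66.0% and 61.8% of its UMIs in the donor-derived libraries, 48.0% and 50.4% in the endogenous libraries, with 39.3% in the control. An Apoc1 UMI was found in 50.3% and 47.3% of donor-derived basal-like cells, against 62.3% and 48.1% of the endogenous and 66.2% of the control ones, so that the higher donor-derived level with these classes did not come with a larger share of cells.

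Within the donor-derived basal-like cells, Apoe was low with or without an EGFP UMI. Leaving out cluster 2, Apoe was 275 CPM in the 320 cells with an EGFP UMI and 194 CPM in the 226 cells without one on day 40, and 479 CPM in 177 cells with one and 506 CPM in 194 cells without one on day 56. Both clusters of donor-derived basal-like cells were low in Apoe but differed from each other. Cluster 1, led by Clca3a2 and Krt14, had 282 and 705 CPM of Apoe and 393 and 645 CPM of Apoc1. Cluster 9, led by Tnc and Sfn, had 69.6 and 274 CPM of Apoe and 182 and 131 CPM of Apoc1. In these clusters Apoe was higher on day 56 than on day 40, and in cluster 0 it was 75.5 CPM (58.4 to 96.0) on day 40 and 262 CPM (249 to 274) on day 56. With 1 recipient per day, no error can be given for a difference between days.

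**Figure D2:**
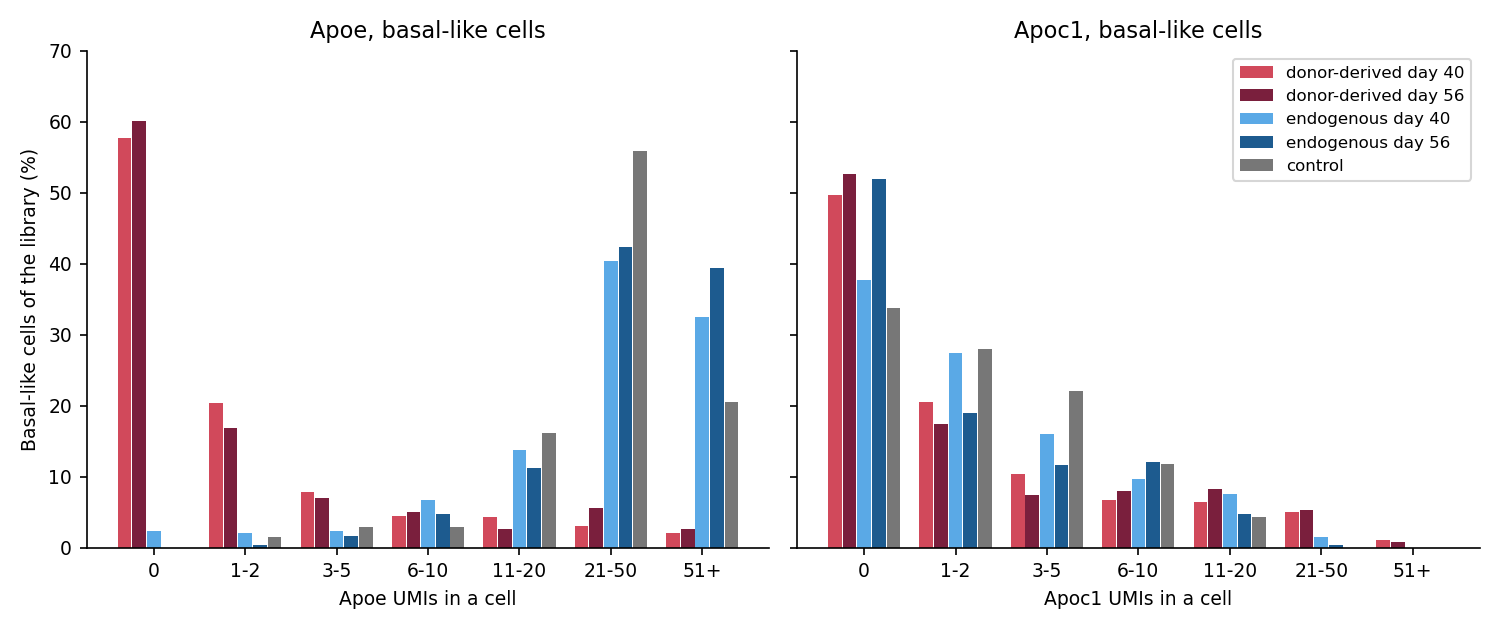
Share of the basal-like cells of a library (y axis, percent) by the number of Apoe (left) or Apoc1 (right) UMIs in a cell, with donor-derived bars left of endogenous and control bars. Donor-derived cells are most often at 0 Apoe UMIs, at 57.8% and 60.2% of cells, and endogenous cells most often at 21 to 50, at 40.4% and 42.4%, while the Apoc1 distributions overlap.

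Apoe and Apoc1 UMIs were found in the same donor-derived basal-like cells more often than their shares alone would give. Both were seen in 28.1% and 26.2% of donor-derived basal-like cells, where the product of the shares is 21.2% and 18.9%. Of the cells with Apoe, 66.5% and 65.8% had Apoc1 too, and of those without Apoe 38.4% and 35.1%. In endogenous basal-like cells both were seen in 61.7% and 48.1%, where the product is 60.8% and 48.1%. Apoe was found in 97.7% and 100% of these endogenous cells, which leaves little or no room for an excess. The endogenous shares therefore cannot show whether both genes go together. Deeper cells give more UMIs of every gene, and the part of depth in these shares was not tested.

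Of the other donor-derived cells with a basal score, cluster 20, led by Cxcl10 and guanylate-binding protein genes, had 254 CPM of Apoe and 683 CPM (632 to 737) of Apoc1 on day 40. Cluster 0, led by Sftpc and Lmo1, had 262 and 552 CPM of Apoc1 on days 40 and 56. With clusters 0, 19 and 20 joined to the basal-like cells, a choice made after seeing the data, the log2 ratio of donor-derived over endogenous cells was -3.57 for Apoe and 0.75 for Apoc1. In dividing cells (cluster 19) of the day 40 recipient, Apoe was 134 CPM (113 to 157) in 43 donor-derived and 705 CPM (635 to 781) in 26 endogenous cells, and Apoc1 was 235 CPM (208 to 264) in donor-derived and 111 CPM (84.4 to 144) in endogenous cells. These 2 sums have no replicate, and the directions were those of the basal-like cells.

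Outside the basal cells both members were lower in every epithelial class of the endogenous libraries. In the endogenous libraries Apoe was highest in basal-like cells, then in hillock-like cells, whose leading gene was Krt13, at 1584 and 2095 CPM, and then in cluster 8, led by Coch and Fmo6, at 452 and 561 CPM, with the dividing cells of cluster 19, at 705 CPM on day 40 alone, between these last. Ciliated-like cells had 19.98 and 25.9 CPM of Apoe, cluster 11, which scored as ciliated, 2.56 and 15.1 CPM and secretory-like cells 15.5 and 2.25 CPM. The first 4 of these classes did not overlap between the libraries, and cluster 11 and secretory-like cells did. Below basal-like cells Apoc1 had another order in the endogenous libraries, with 111 CPM in cluster 19 on day 40, 138 and 135 CPM in cluster 8, 99.3 and 68.8 CPM in hillock-like, 15.9 and 10.1 CPM in secretory-like, 5.98 and 3.36 CPM in cluster 11 and 1.02 and 1.89 CPM in ciliated-like cells. Apoc1 was thus higher in cluster 8 than in hillock-like cells, while Apoe was lower there, in both libraries. The control cells of cluster 8 had 670 CPM of Apoe and 163 CPM of Apoc1.

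In secretory-like cells both members were low. Apoe was 1.85 CPM (0.742 to 3.80) and 1.76 CPM (0.909 to 3.07) in donor-derived, 15.5 CPM (12.4 to 19.2) and 2.25 CPM (1.16 to 3.93) in endogenous and 20.6 CPM (16.3 to 25.7) in control secretory-like cells, and the endogenous library of day 56 was within the counting intervals of the donor-derived ones. A single secretory-like cell held 49 of the 84 Apoe UMIs of the endogenous library of day 40, and another held 22 of the 80 of the control. The counting intervals do not cover such spread between cells. The Apoe log2 ratio of donor-derived over endogenous secretory-like cells, -2.30, was -0.32 without the endogenous library of day 40. Apoc1 was 2.64 CPM (1.26 to 4.85) and 3.96 CPM (2.61 to 5.76) in donor-derived, 15.9 CPM (12.7 to 19.6) and 10.1 CPM (7.61 to 13.2) in endogenous and 24.5 CPM (19.8 to 29.9) in control secretory-like cells. Both donor-derived libraries were below the other 3, with means of 3.30 ± 0.934 CPM in donor-derived secretory-like cells, against 13.0 ± 4.09 CPM in endogenous ones (SD, n = 2 each) and a log2 ratio of -1.98, with -2.59 and -1.36 in the recipients of days 40 and 56. TMM scaling moved all genes in secretory-like cells by -0.27, and with it the Apoc1 log2 ratio was -2.24. The class was held by cluster 3 in the donor-derived libraries and by clusters 6 and 7 in the endogenous ones. Basal markers summed to 1689 and 682 CPM in donor-derived secretory-like cells, against 2675 and 1360 CPM in endogenous ones and 2186 CPM in the uninjured control, and their part in these low levels was not tested.

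In ciliated-like cells the donor-derived libraries gave 4 and 2 UMIs of Apoe, at 6.57 and 1.43 CPM, the endogenous libraries 39 and 55 UMIs, at 19.98 and 25.9 CPM, and the control 5 UMIs, at 4.11 CPM. The endogenous UMIs came from 7 and 5 cells, so a few cells carried them. Of the 33 donor-derived ciliated-like cells of day 40, 11 lay in cluster 5, which held all the endogenous ones, and without them Apoe was 5.62 CPM there. The log2 ratio of the Apoe means in ciliated-like cells, -2.52, rests on 6 donor-derived UMIs. Apoc1 gave 3 and 1 UMIs in donor-derived, 2 and 4 in endogenous and 7 in control ciliated-like cells, too few for a ratio. Microfold-like cells of the donor-derived libraries had 14.99 and 2.25 CPM of Apoe and 27.4 and 2.25 CPM of Apoc1, and tuft-like cells of the endogenous libraries 5.70 and 6.10 CPM of Apoe, from 1 UMI each.

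Macrophages are a textbook source of Apoe, and in the endogenous libraries the macrophage-like cells carried it in a minority of cells. Apoe was 112 CPM (83.2 to 148) in 47 macrophage-like cells on day 40 and 343 CPM (310 to 378) in 115 on day 56, well below the endogenous basal-like level in both libraries. An Apoe UMI was found in 12.8% (exact 95% binomial interval 4.83 to 25.7) and 16.5% (10.3 to 24.6) of macrophage-like cells, and in 10.9% and 12.4% after thinning to 5000 UMIs. T and NK-like cells, which should lack Apoe, gave an Apoe UMI in 5.56% and 4.88% of cells at median UMIs of 5588 and 5410, against medians of 9480 and 9803 in macrophage-like cells. The highest macrophage-like cell held 23 and 84 Apoe UMIs, and without it the level was 61.3 and 272 CPM. Neither library had a Krt5 UMI in a macrophage-like cell. Over all libraries, however, the epithelial gene Epcam was found in 54.8% of the cells of this class. The leukocyte gene Ptprc was found in 96.4% and C1qa in 41.6% of them. The source of the Epcam UMIs was not tested.

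The Apoe UMIs went with the C1q genes, which mark tissue macrophages. Among macrophage-like cells with a C1q UMI, 4 of 18 on day 40 and 19 of 57 on day 56 had Apoe, at 262 CPM (193 to 349) and 761 CPM (689 to 839). Among those with no C1q UMI, 2 of 29 and 0 of 58 had Apoe, at 11.2 CPM (2.32 to 32.9) and 0 CPM, where 3 counts would be 4.64 CPM. Median depth was 9593 and 8892 UMIs with a C1q UMI and 9480 and 10952 without. With a finer clustering, at resolution 2.0, the macrophage-like class held 21 and 51 cells at 274 and 932 CPM, and with doublets kept the day 40 level was 267 CPM. Apoc1 gave 0 UMIs in the macrophage-like cells of both libraries, which allows up to 6.73 and 2.55 CPM at 3 counts. The donor-derived and control libraries held 1, 1 and 2 macrophage-like cells, too few for a level.

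B lineage-like cells of the endogenous libraries had Apoe at a larger share of cells than macrophage-like cells, with overlapping intervals on day 40. Apoe was 403 CPM (338 to 476) in 40 B lineage-like cells on day 40 and 1583 CPM (1476 to 1696) in 59 on day 56, with a UMI in 32.5% (18.6 to 49.1) and 52.5% (39.1 to 65.7; exact binomial intervals) of cells at median UMIs of 6238 and 6303, and in 21.4% and 42.2% after thinning. The highest cell held 51 and 120 Apoe UMIs, and 3 and 22 B lineage-like cells had at least 10. Without that highest cell the level was 256 and 1372 CPM. B lineage-like cells had 1 and 0 cells with a Krt5 UMI, and the Apoc1 count was 0 in both libraries. The 21 fibroblast-like cells of day 56 had 1105 CPM (954 to 1274) of Apoe and 0 UMIs of Apoc1. In T and NK-like cells Apoe was 144 and 64.0 CPM, but 42 of 43 and 52 of 58 UMIs lay in a single cell of each library with 31 and 32 Krt5 UMIs. Without that cell the T and NK-like level was 3.57 and 6.78 CPM, and dendritic-like cells had 4.71 and 0 CPM.

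Across the 43 sums of a library and class with at least 20 cells, Apoe and Apoc1 did not have the same partners. The 5 genes most like Apoc1, by Pearson's r of log2(CPM + 1) among 11897 genes of at least 20 CPM in a sum, were Snai2 (r = 0.931), Fat2 (0.926), Trp63 (0.915), 4631405K08Rik (0.915) and Cdh3 (0.898). Trp63 encodes the transcription factor that defines basal cells, and it stood at 193 and 189 CPM in donor-derived basal-like cells, against 406 and 446 CPM in endogenous ones and 413 CPM in the uninjured control. Fat2 and 4631405K08Rik were also lower in both donor-derived libraries than in both endogenous ones. Cdh3 went the other way, with 57.2 and 49.8 CPM in donor-derived basal-like cells, against 24.4 and 21.4 CPM in endogenous ones. The 5 most like Apoe were Zfp362 (r = 0.777), Fam212a (0.775), Abi3bp (0.769), Npm3 (0.758) and Mthfd1 (0.754). Abi3bp, which encodes a matrix protein, had a difference like that of Apoe, with 27.8 and 11.2 CPM in donor-derived basal-like cells, against 918 and 1027 CPM in endogenous ones and 902 CPM in the uninjured control. Fam212a, Npm3 and Mthfd1 had no such difference. Fam212a was 30.5 and 30.3 CPM in donor-derived basal-like cells, against 30.7 and 31.8 CPM in endogenous ones. Npm3 was 111 and 111 CPM against 127 and 106 CPM, and Mthfd1 53.5 and 61.9 CPM against 47.9 and 59.2 CPM. Apoe and Apoc1 had r = 0.526 with each other over all sums, and r = 0.974 over the 14 donor-derived and r = 0.874 over the 15 endogenous sums of epithelial cells. The sums share libraries, and such an r describes these libraries only.

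Among the 9 other genes within 100 kb of the cluster that reached 20 CPM in a sum, none had a difference like that of Apoe in basal-like cells. These neighbours were tested across all genes with edgeR's quasi-likelihood test and Benjamini-Hochberg adjustment, in which 18.4% of 10921 genes were called in basal-like cells and 16.0% of 10595 in secretory-like cells at an adjusted p under 0.05. In basal-like cells 2 of the 9 were called, both higher in donor-derived cells, and the fitted log2 fold changes of all 9 ran from -0.24 to 1.12. Nectin2, a cell adhesion receptor, was 63.3 and 79.1 CPM in donor-derived basal-like cells, against 25.5 and 34.5 CPM in endogenous ones (log2 fold change 1.12, SE 0.19, edgeR adjusted p = 0.00220). Relb, a subunit of NF-kappaB, was 61.8 and 46.0 CPM in donor-derived basal-like cells, against 26.6 and 28.2 CPM in endogenous ones (log2 fold change 0.85, SE 0.19, edgeR adjusted p = 0.0108). Tomm40, which lies upstream of Apoe, and Clptm1, which lies downstream of the cluster, were not called, at edgeR adjusted p = 0.193 and 0.201. Gemin7, Zfp296, Clasrp, Bcam and Cblc were not called in basal-like cells either. In secretory-like cells 4 of the 9 were called, all higher in donor-derived cells: Relb, Nectin2, Bcam and Cblc.

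**Figure D3:**
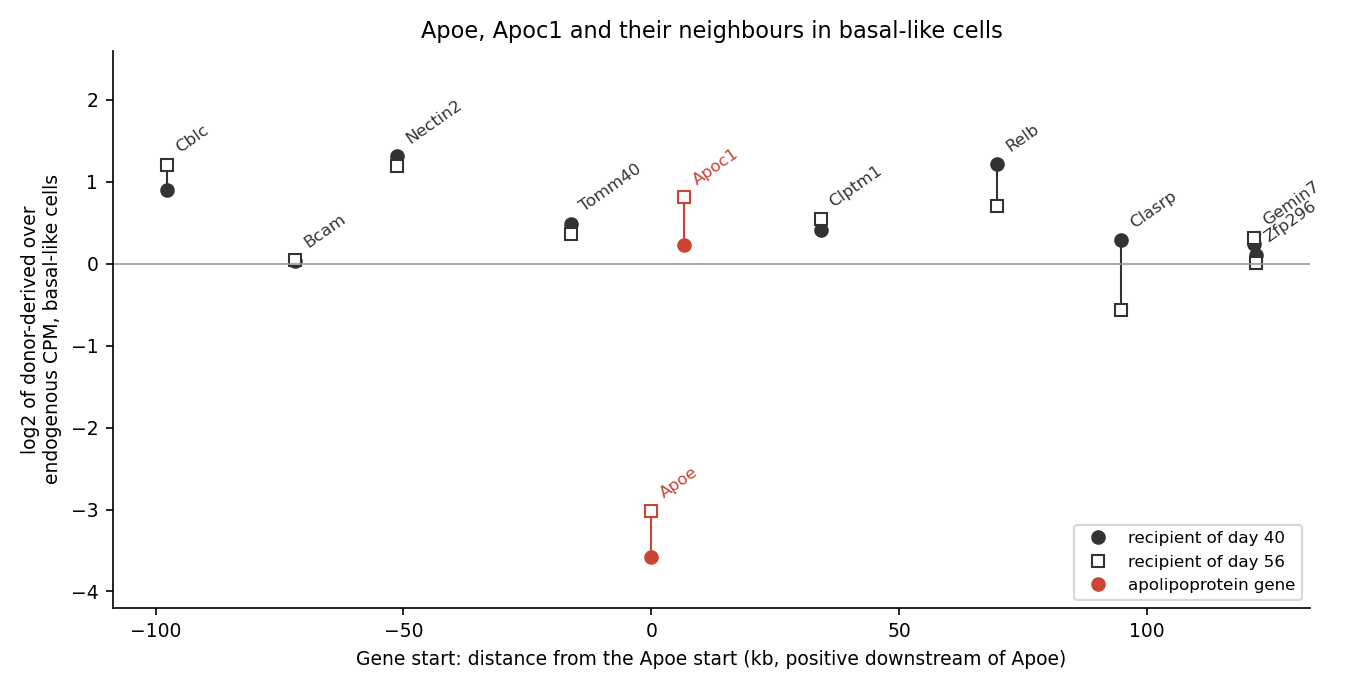
The log2 ratio of donor-derived over endogenous CPM in basal-like cells (y axis) for Apoe, Apoc1 and the neighbours with at least 20 CPM in a sum, by the distance of their start from that of Apoe (x axis, kb), with a filled circle for the recipient of day 40 and an open square for that of day 56. Apoe lies at -3.58 and -3.01, Apoc1 at 0.23 and 0.81, and the lowest of the 9 neighbours, Clasrp on day 56, lies at -0.57.

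The proteins that receive, load and break down lipoproteins were followed through 6 lists of 77 genes, the members left out. Of the 48 tested in basal-like cells, 12 were higher and 6 lower in donor-derived cells (edgeR, adjusted p under 0.05), against 18.4% of all genes called. Of the 45 tested in secretory-like cells 3 were higher and 10 lower, against 16.0% of all genes, and of the 41 tested in ciliated-like cells 1 was higher, against 4.95% of all genes. With the recipient as a block, 27 of the 48 were called in basal-like cells, against 29.1% of all genes. With clusters 0, 19 and 20 joined to the basal-like cells, 6 of 51 tested list genes were called, against 8.86% of all genes. Without either endogenous library, fewer list genes and a smaller share of all genes were called in basal-like and in secretory-like cells. Those fits leave 1 library in a group, so their counts are not given.

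Cholesterol efflux loads Apoe with lipid, and its activity was not measured here. Of the 10 tested genes on the efflux and LXR list, 1 rose and 3 fell in basal-like cells, against 18.4% of all genes called in either direction. Their median log2 fold change was -0.12, against 0.01 over all genes tested. Abca1, the transporter that hands cholesterol to Apoe, was 45.6 and 45.0 CPM in donor-derived basal-like cells, against 88.0 and 69.5 CPM in endogenous ones and 54.3 CPM in the uninjured control, and it fell (log2 fold change -0.94, SE 0.16, edgeR adjusted p = 0.00183). This call was lost without the endogenous library of day 40 (edgeR adjusted p = 0.0522) and with the unnamed basal-scoring clusters joined to the class (edgeR adjusted p = 0.367). Abcg1, its partner, which was chosen for mention after its values were seen, was 6.15 and 4.29 CPM in donor-derived basal-like cells, against 18.5 and 13.1 CPM in endogenous ones and 20.2 CPM in the uninjured control (edgeR adjusted p = 0.00286). Pltp, which transfers phospholipid between particles, fell too, at 52.8 and 43.8 CPM in donor-derived basal-like cells, against 63.1 and 74.2 CPM in endogenous ones (edgeR adjusted p = 0.0186). The uninjured control had 52.8 CPM of Pltp, like the donor-derived library of day 40. The Pltp call was lost without any library other than the donor-derived one of day 40. Npc2, which carries cholesterol out of lysosomes, rose to 519 and 350 CPM in donor-derived basal-like cells, against 179 and 150 CPM in endogenous ones (log2 fold change 1.26, SE 0.20, edgeR adjusted p = 0.00349). It rose as well in secretory-like cells, to 632 and 518 CPM in donor-derived cells, against 205 and 263 CPM in endogenous ones.

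Of the receptors and adaptors of Apoe, 3 of 10 tested genes rose in basal-like cells and none fell, against 18.4% of all genes called in either direction. The median over the 10 genes was -0.28. Among the genes that rose were Trem2 and Sort1, named after their values were seen because they fell below the level for naming. Trem2, a receptor of myeloid cells that binds Apoe, was 22.5 and 15.7 CPM in donor-derived basal-like cells, against 5.54 and 1.99 CPM in endogenous ones and 0 CPM in the uninjured control (edgeR adjusted p = 0.00454), where the C1q genes were near 0 as given above. In secretory-like cells 2 of 8 receptor genes fell and none rose, against 16.0% of all genes called in either direction. The receptor list is small, and its counts were not tested against these shares or between the classes.

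Cholesterol synthesis and lipid storage were counted in both classes, and the genes in brackets were chosen for mention after their values were seen. Of the synthesis genes 3 of 14 rose in basal-like cells (Cyp51, Fdft1 and Sc5d) and none fell, a share near the 18.4% of all genes called there, with a median of 0.20. In secretory-like cells 5 of 15 fell (among them Insig1, Fdps, Sqle and Hmgcs1) and none rose, against 16.0% of all genes called in either direction, with a median of -0.64. Hmgcs1, an early enzyme of the pathway, was 21.1 and 27.7 CPM in donor-derived secretory-like cells, against 35.5 and 31.3 CPM in endogenous ones (log2 fold change -0.69, edgeR adjusted p = 0.0163). The uninjured control had 28.9 CPM of Hmgcs1, between the groups. The Hmgcs1 call was lost without the donor-derived or the endogenous library of day 40. Plin2, which coats lipid droplets, was 49.7 and 59.1 CPM in donor-derived basal-like cells, against 19.7 and 19.1 CPM in endogenous ones and 14.0 CPM in the uninjured control (log2 fold change 1.34, SE 0.18, edgeR adjusted p = 0.000513). In secretory-like cells Plin2 was 47.2 and 60.4 CPM in donor-derived cells, against 73.8 and 90.6 CPM in endogenous ones (log2 fold change -0.86, SE 0.17, edgeR adjusted p = 0.00362). The uninjured control had 47.2 CPM there, like the donor-derived library of day 40 and below both endogenous ones. The Plin2 call in secretory-like cells was lost without the endogenous library of day 56.

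Cd36, a scavenger receptor for fatty acids and oxidised lipoproteins, had the largest fall of the named genes in these lists. Its level was 0.429 and 0.953 CPM in donor-derived basal-like cells, against 35.4 and 61.9 CPM in endogenous ones and 138 CPM in the uninjured control (log2 fold change -6.32, SE 0.44, edgeR adjusted p = 2.42e-05). In secretory-like cells Cd36 was 9.75 and 4.98 CPM in donor-derived cells, against 279 and 297 CPM in endogenous ones and 426 CPM in the uninjured control (log2 fold change -5.63, SE 0.23, edgeR adjusted p = 2.59e-07). These donor-derived levels rest on 37 and 34 UMIs, of which 1 and 1 remained, at 0.27 and 0.15 CPM, when the 5 and 4 donor-derived cells that lay in clusters of endogenous cells were left out, and the fitted log2 fold change was then -10.61. In basal-like cells the donor-derived levels rest on 3 and 4 UMIs, and with doublets kept the log2 fold change was -7.20. Ctsd, a lysosomal protease, rose in the 3 classes tested, in the order basal-like, secretory-like, ciliated-like by log2 fold changes of 0.56, 0.80 and 0.78 (edgeR adjusted p = 0.0133, 0.000331 and 0.0230). Its call in basal-like cells was lost without a library other than the donor-derived one of day 56 (edgeR adjusted p = 0.0851 to 0.145, at log2 fold changes of 0.40 to 0.60). Its call in ciliated-like cells was lost without either endogenous library, where the log2 fold change was 0.78 and 0.76. It was lost as well when cells were clustered at resolution 0.5 or 2.0, where no list gene was called in that class. Pnpla2, the lipase of lipid droplets, rose in basal-like cells (log2 fold change 0.80, edgeR adjusted p = 0.0118, and 0.0828 and 0.118 without an endogenous library), and Cd9 fell there (log2 fold change -0.52, edgeR adjusted p = 0.0106, and 0.132 and 0.154 without an endogenous library). Lrpap1, a chaperone of the receptors, fell in secretory-like cells (log2 fold change -0.44, edgeR adjusted p = 0.0361, and 0.142 to 0.268 without a library other than the donor-derived one of day 40). Of the 12 other apolipoprotein genes on the list 2 passed the filter on low counts, and 1 of them, Apoo, a mitochondrial protein chosen for mention after its values were seen, rose in basal-like and secretory-like cells (edgeR adjusted p = 0.00350 and 0.0235).

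**Figure D4:**
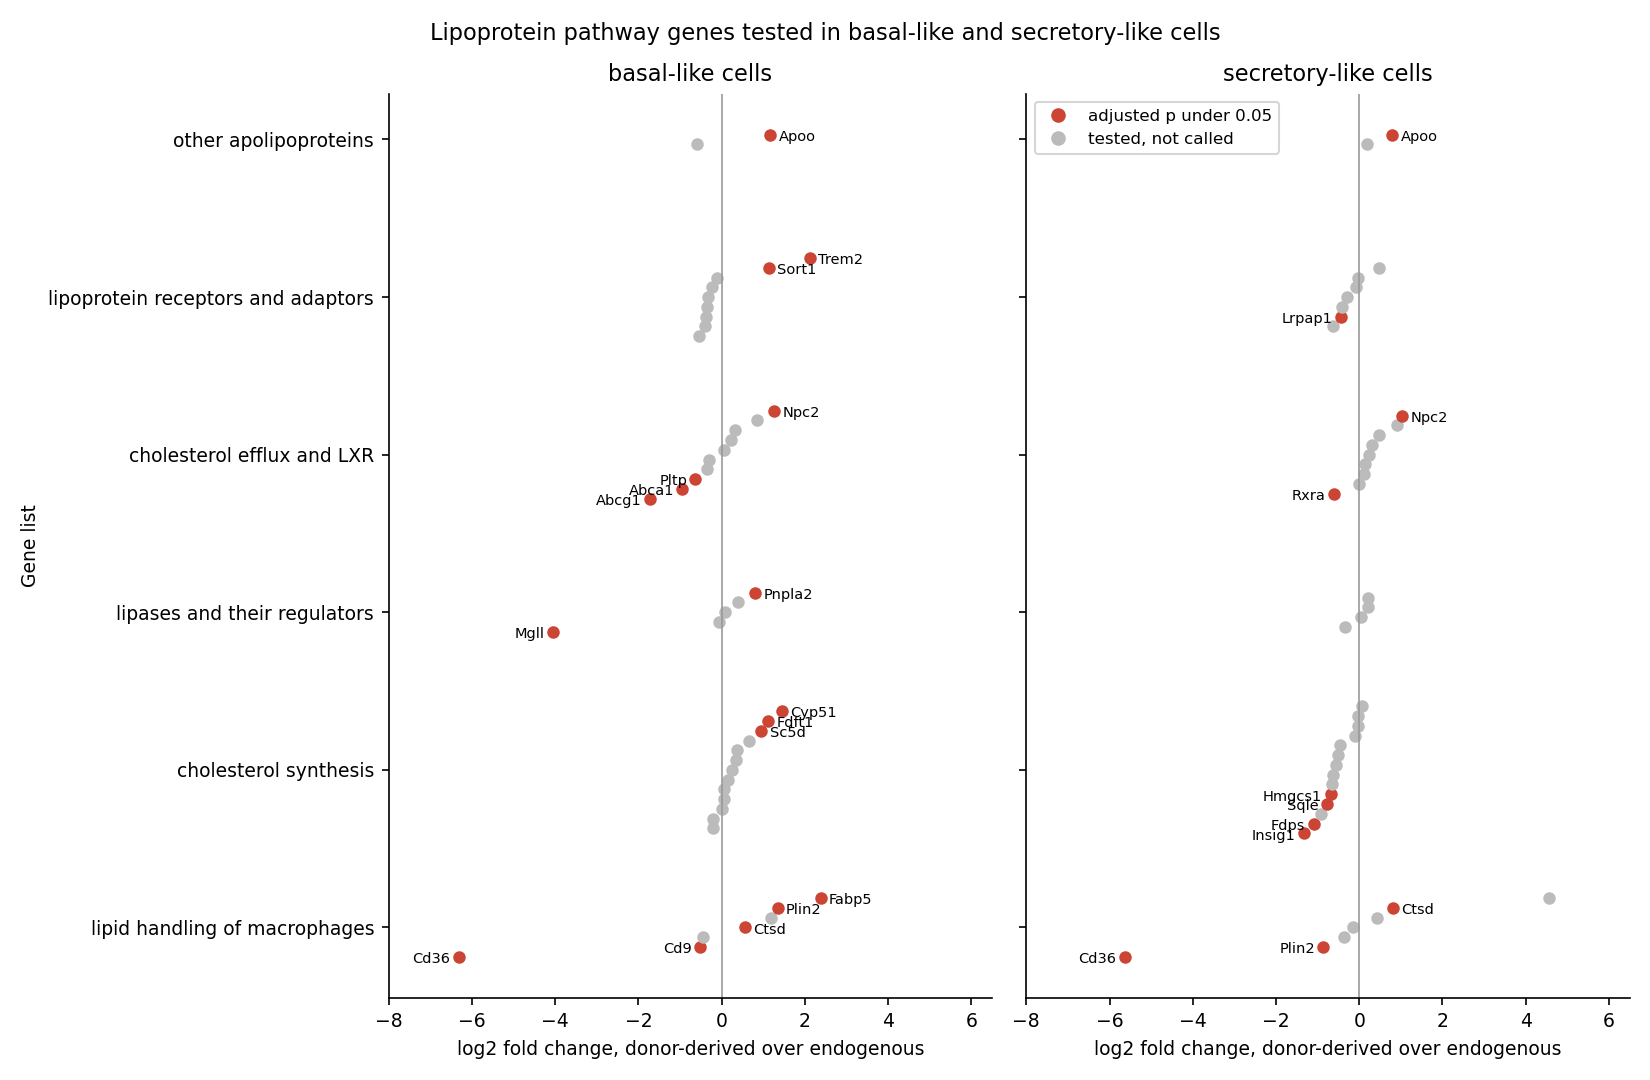
Fitted log2 fold changes of donor-derived over endogenous cells (x axis) for the reported genes of 6 lists (y axis, ordered by value within a list) in basal-like (left) and secretory-like (right) cells, in red where the adjusted p was under 0.05 and in grey otherwise. Cd36 lies at -6.32 and -5.63, and Plin2 lies to the right of 0 in basal-like cells, at 1.34, and to its left in secretory-like cells, at -0.86.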

How the data were processed

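The authors deposited, for each of 5 libraries, a matrix of UMI counts (whole numbers, not normalised). Features carry human and mouse prefixes plus 2 reporter sequences. Builds GRCm38 and GRCh38 and the tools STARsolo, Cell Ranger and Seurat are named in the submitters' processing notes. Not given in the sources used here are the tool behind each matrix, the barcode filter and the use of strand. The 4 genes, the 6 gene lists and the markers were chosen with earlier results of these data known, so calls on the lists are not independent evidence. Some list genes entered the counts and medians but are not reported here by name.

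Barcodes with more than 10% human UMIs (192, all in the control), over 20% mitochondrial UMIs or under 500 genes were left out, as were Scrublet's doublets (4 to 23 per library). Libraries shared 0 to 2 barcodes in any pair. Leiden clustering (resolution 1.0, seed 1, 2000 variable genes without the 4 genes and the lists, 30 components, 15 neighbours) gave 25 clusters. A name needed the best mean score, 3 detected markers, the list's first marker in 10% of cells, and a marker of its own in the cluster's top 10, where another class could not have more. This naming rule, unlike the markers, was set after the clusters were seen. Counts were summed per library and class of at least 20 cells. Libraries held 16580940 to 25569394 UMIs, and in the control the human-mapped barcodes left 7493284 mouse UMIs.

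The main test of donor-derived over endogenous sums was edgeR's (version 4.0.16, R 4.3.3): robust quasi-likelihood F-tests after TMM scaling and filterByExpr, with p-values adjusted by Benjamini-Hochberg over all genes tested and a threshold of 0.05. The SE is the log2 fold change divided by the square root of F, an approximation. The p-values measure the spread of 2 libraries per group, which come from recipients of different days. Per the series' design, each day's pair of libraries is from 1 recipient, so the fit was repeated with a block for recipient. Same-recipient deviations correlated at r = 0.318 in basal-like, 0.141 in secretory-like and 0.0454 in ciliated-like cells. The step was tested on simulated counts. DESeq2 1.42.0 was an alternative. Named genes are the 4 members, up to 4 called genes per list and class by size of change at a mean of 20 CPM, neighbours within 100 kb at 20 CPM, and the 5 genes most like each detected member. Analyses ran in Python 3.11.15 with scipy 1.17.1, numpy 2.4.6, pandas 2.3.3, scanpy 1.11.5, leidenalg 0.10.2, anndata 0.12.19, matplotlib 3.10.9 and scikit-learn 1.9.0. Gene positions and exons are from the GENCODE annotation of GRCm38 and upstream windows from RefSeq on GRCm38.p6, which matched 3 of the 4 genes.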

Additional observations from a re-analysis of the deposited data

Results flagged for a closer look

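Apoc1 differed in direction between classes. Its log2 ratio of donor-derived over endogenous cells was 0.50 in basal-like cells, with 0.23 and 0.81 in the recipients of days 40 and 56, and -1.98 in secretory-like cells, with -2.59 and -1.36. Plin2 had a log2 fold change of 1.34 in basal-like and -0.86 in secretory-like cells. In the uninjured control Plin2 was 14.0 CPM in basal-like cells, below all donor-derived and endogenous libraries. In control secretory-like cells it was 47.2 CPM, like the donor-derived library of day 40. In each case both recipients moved one way in one class and the opposite way in the other, and the difference between the classes was not tested. For Apoc1 this did not hold when the members and the list genes were allowed among the genes used for clustering, where its basal-like log2 ratio was -0.77, with -1.06 and -0.46 in the 2 recipients, so that it was lower in donor-derived cells of both classes. The basal-like class then lacked a basal-scoring cluster of 469 and 177 donor-derived cells that stayed unnamed. Plin2 was looked at because it was called in both classes.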

How the results depend on the processing

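The Apoe and Apoc1 ratios that the text reports kept their sign in 54 of 55 recalculations. The exception was Apoc1 in basal-like cells, at -0.77 when the members and the list genes were allowed among the variable genes, an alternative added for these ratios after seeing the data, with Apoe at -3.81. At resolution 0.5 the basal-like log2 ratio was -2.68 for Apoe and 1.01 for Apoc1, beyond the spread between recipients. Leaving out a library gave Apoe -3.63 to -2.96 and Apoc1 0.30 to 0.75 in basal-like, Apoe -3.11 to -0.32 and Apoc1 -2.30 to -1.62 in secretory-like and Apoe -4.01 to -1.81 in ciliated-like cells. Taking away the RNA that macrophage-like cells could give, scaled by the C1q genes, removed at most 0.121 CPM. This step did not cover free RNA of basal-like cells, which held most of the Apoe UMIs, and the part of such RNA in the other classes was not tested. At resolution 2.0 the macrophage-like Apoe level was 274 and 932 CPM, with Apoe in 37.3% of cells on day 56, and with doublets kept it was 267 CPM on day 40. Thinning and that same alternative left the macrophage-like shares within their counting intervals.

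The count of called list genes in basal-like cells (18) was 11 to 17 when a library was left out and 6 with the unnamed basal-scoring clusters joined. In secretory-like cells (13) it was 8 with DESeq2 and 8 to 13 when a library was left out. In ciliated-like cells (1) it was 4 with no filter on low counts, 0 at resolution 0.5 and at resolution 2.0, 4 without the cells in clusters of the other origin, and 0 to 7 when a library was left out. The share of all genes called moved too. It was 8.86% with the basal-scoring clusters joined, against 18.4%, and 10.1% with DESeq2 in secretory-like cells, against 16.0%. In ciliated-like cells (4.95%) it was 7.22% with no filter, 3.72% and 2.93% at resolutions 0.5 and 2.0, and 9.07% without other-origin cells. Without a library it fell in basal-like and secretory-like cells. In ciliated-like cells it fell without an endogenous and rose without a donor-derived library. All genes called in basal-like cells numbered 2007, against 3178 with the recipient as a replicate block, and the block lost none of the 15 calls on named list genes. Of these 15, 6 held under every alternative and none turned sign. The cause of these shifts was not tested. At resolution 0.5 no secretory-like value could be had, since too few donor-derived cells took that name. Sums of few UMIs, as of Apoe in ciliated-like cells, limit what depth can show, and with 1 control library levels in the control have counting error only.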

Other observations

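Within the B lineage-like cells of day 56, Apoe was found in 29 of 48 cells without a UMI of Jchain, a gene of antibody-secreting cells, and in 2 of 11 cells with one, at 1888 and 717 CPM. All 31 B lineage-like cells with Apoe on day 56 had an Ms4a1 UMI, the CD20 gene of B cells, as 54 of the 59 cells did. On day 40 Apoe was found in 13 of 37 cells without and 0 of 3 cells with a Jchain UMI. Cluster 11, which scored as ciliated, had 150 CPM of Apoe in the 23 control cells, with a UMI in 7 of them, beside 2.56 and 15.1 CPM in the endogenous cells. The 3 control cells with the most Apoe held 93.4% of the 61 UMIs, and the highest held 28.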
